A study of Mus musculus with 4 samples.

Results

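The genes described here are 10 genes of lipid-associated macrophages and of the lysosome, taken by name: *Trem2*, *Gpnmb*, *Lgals3*, *Ctsk*, *Ctss*, *Cd9*, *Cd63*, *Lipa*, *Atp6v0d2* and *Spp1*. Of these 10 genes, 9 had a probe set that named only that gene, out of 19938 genes measured in this way, and each of the 9 rested on 1 probe set. *Spp1*, the osteopontin gene, was not analysed here. The study hybridized 4 arrays, 1 for each group, and each held RNA from the subcutaneous adipose tissue (SAT) of the pooled mice of that group, so the spread between mice was not seen and no test was possible. A gene was said to rise or fall where 2 arrays differed by at least 1.5-fold, a log2 ratio of 0.58 (0.585) or more in size. The 5 comparisons share arrays with one another, and each was therefore described on its own.

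The cKO-HFD and cKO-CT groups were mice with 2 floxed *Napepld* alleles and an AP2 Cre (*Fabp4-Cre*) transgene, on a high fat diet (HFD) and a control diet (CT). The WT-HFD and WT-CT groups were their littermates with the same floxed alleles and no Cre, on the same diets. All were male C57Bl6 mice of 16 weeks, of which the last 8 weeks were spent on the diet. *Napepld* encodes an enzyme that makes N-acylethanolamines, a family of bioactive lipids. The *Fabp4* promoter drives Cre in adipocytes, and the study cites reports of its activity in other cells such as macrophages. In the study, *Napepld* expression did not differ between peritoneal macrophages of cKO and WT mice. *Napepld* itself had a log2 level of 7.94 on cKO-HFD, 8.01 on WT-HFD, 7.78 on cKO-CT and 8.31 on WT-CT. Its ratio was -0.06 in cKO-HFD over WT-HFD and -0.53 in cKO-CT over WT-CT, neither past 1.5-fold. Which exons its probes cover was not examined, and Cre acts in only some of the cells of the tissue, so these levels do not check the labels, which were taken as given.

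Lipid-associated macrophages are the macrophages that gather around dying adipocytes in expanding fat, where they take up and break down lipid. The receptor TREM2 senses lipids and cell debris and signals through the adaptor TYROBP. The ingested material is delivered to the lysosome, an acidic compartment in which lipases and cathepsins digest it and whose acidity is set by the V-ATPase proton pump. In bulk tissue, more cells of a type and more RNA per cell cannot be told apart. Several of the genes are not restricted to macrophages: *Ctsk* is also made by fibroblasts and osteoclasts, and *Cd9*, *Cd63*, *Lgals3* and *Lipa* are made by many cell types.

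Olfactory receptor (*Olfr*) genes, which adipose tissue is not known to use, served as a background, and their 95th percentile was a log2 level of 5.50 on cKO-HFD, 5.42 on WT-HFD, 5.28 on cKO-CT and 5.39 on WT-CT. Of the 9 genes, 8 lay above it on all 4 arrays, and *Atp6v0d2* did so on WT-HFD only. Of 23 pan-macrophage markers, 20 lay above it on cKO-HFD, 20 on WT-HFD, 22 on cKO-CT and 22 on WT-CT. *Adgre1*, *Cd68*, *Csf1r* and *Tyrobp* were among those above it on every array. Markers of other tissues stood apart on single arrays. The mean log2 level of 12 skeletal muscle markers was 7.23 on cKO-HFD, 10.91 on WT-HFD, 9.23 on cKO-CT and 9.40 on WT-CT, with 11, 12, 12 and 12 of them above background. The mean of 10 pancreatic acinar markers was 5.47, 5.54, 5.35 and 7.16 on the same arrays, with 4, 5, 5 and 10 above background. The part of these tissues in the values below was not tested, and with 1 array per group no array could be left out.

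HFD in WT mice was the comparison in which these genes moved most. In WT-HFD over WT-CT, 5 of the 9 rose (*Gpnmb*, *Atp6v0d2*, *Ctss*, *Ctsk* and *Trem2*) and none fell, where 3.16% of all genes rose and 2.67% fell. The call of *Atp6v0d2* rests on a WT-CT level below background, and its bound of at least 1.13-fold lies under 1.5-fold. Their median log2 ratio was 0.72, against 0.00 (-0.0040) over all genes, and 8 of 9 ratios were above 0, against 49.2% of all genes. In cKO-CT over WT-CT none of the 9 rose or fell (1.64% of all genes rose and 1.52% fell), although 8 ratios were above 0, against 49.2% of all genes, with a median of 0.22. In cKO-HFD over cKO-CT none passed 1.5-fold either (1.82% of all genes rose and 2.17% fell), the median was 0.23 and 5 ratios were above 0, against 52.9% of all genes. In cKO-HFD over WT-HFD 2 fell, *Ctss* and *Gpnmb*, and none rose (2.11% of all genes fell and 1.04% rose), with a median of -0.10 and 2 ratios above 0, against 55.5% of all genes. In cKO-HFD over WT-CT 4 rose (*Ctsk*, *Gpnmb*, *Trem2* and, between levels below background on both arrays, *Atp6v0d2*) and none fell (3.36% of all genes rose and 3.41% fell), with a median of 0.44 and 8 ratios above 0, against 52.2% of all genes.

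**Figure D1:**
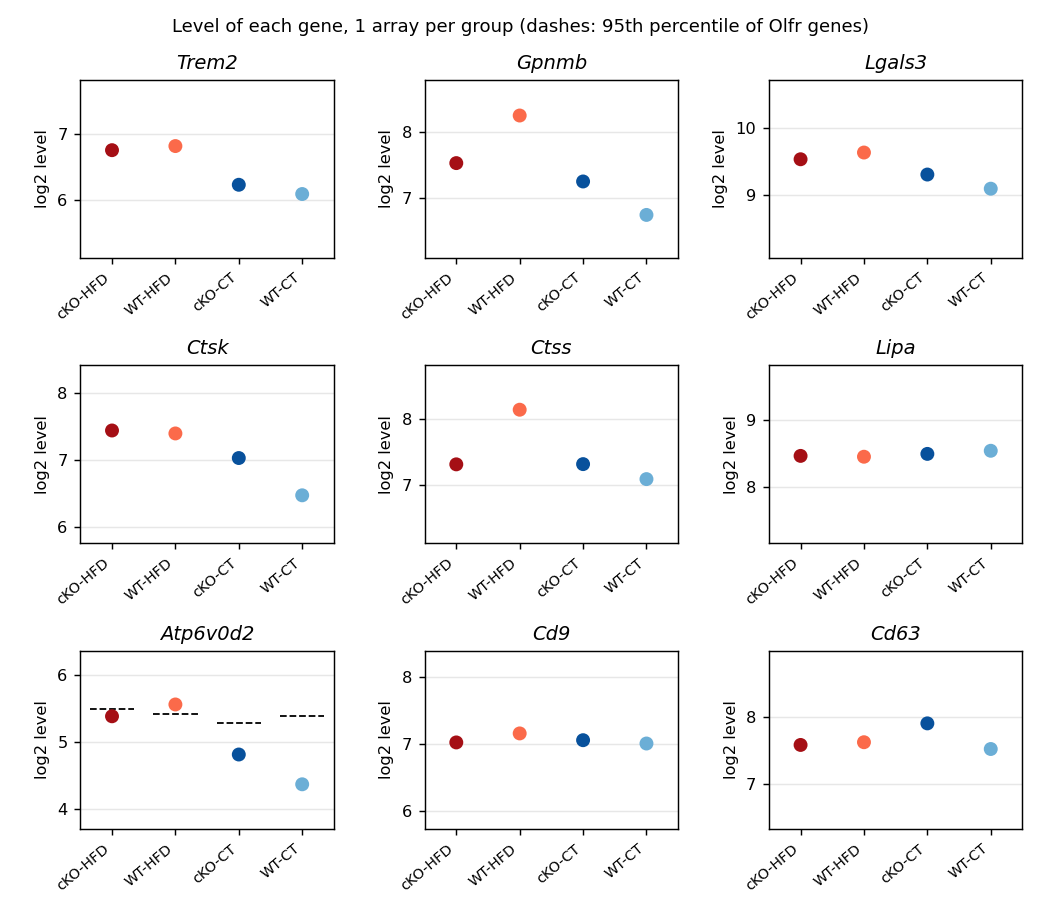
Log2 level (vertical axis, of the same span in every panel) of each of the 9 genes on the cKO-HFD, WT-HFD, cKO-CT and WT-CT arrays, 1 point per array. *Gpnmb* and *Ctss* stood highest on WT-HFD (8.24 and 8.13), *Lipa* and *Cd9* varied by 0.15 or less, and the dashes in the *Atp6v0d2* panel mark the *Olfr* background, drawn in that panel only.

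*Trem2* encodes a lipid-sensing receptor of these macrophages. Its log2 level was 6.75 on cKO-HFD, 6.81 on WT-HFD, 6.23 on cKO-CT and 6.10 on WT-CT, so both HFD arrays stood above both CT arrays. It rose by 0.72 on the log2 scale in WT-HFD over WT-CT (1.65-fold), a ratio above that of 98.1% of genes. Among the 3899 genes within 0.5 log2 units of its mean level, 3.33% rose in that comparison. Its ratio in cKO-HFD over cKO-CT was 0.52 (1.43-fold), above that of 97.0% of genes but under 1.5-fold. The genotype ratios were small, 0.14 in cKO-CT over WT-CT and -0.06 in cKO-HFD over WT-HFD.

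*Gpnmb* encodes a transmembrane glycoprotein of late endosomes and lysosomes that macrophages make under lysosomal load. Its log2 level was 7.53 on cKO-HFD, 8.24 on WT-HFD, 7.25 on cKO-CT and 6.75 on WT-CT. No other member spanned as wide a range, 1.49 log2 units, with WT-HFD at the top and WT-CT at the bottom. In WT-HFD over WT-CT it rose 2.81-fold (log2 ratio 1.49), above 99.7% of genes and above all 23 pan-macrophage markers. HFD in the cKO mice gave a ratio of 0.28 (1.21-fold). The cKO arrays thus lay between the WT arrays, with a genotype ratio of 0.50 on CT (1.42-fold, above 97.0% of genes but under 1.5-fold) and a fall to 0.61-fold on HFD (log2 ratio -0.71, above only 1.43% of genes).

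*Lgals3* encodes galectin-3 (Mac-2), a sugar-binding protein long used as a macrophage marker. It had a log2 level of 9.53 on cKO-HFD, 9.63 on WT-HFD, 9.30 on cKO-CT and 9.09 on WT-CT. The order was that of *Trem2*, with the HFD arrays above the CT arrays, but no ratio passed 1.5-fold. The nearest was 0.54 in WT-HFD over WT-CT (1.46-fold), where 7.97% of the 665 genes of like level rose. Its other ratios were 0.23 in cKO-HFD over cKO-CT, 0.21 in cKO-CT over WT-CT and -0.10 in cKO-HFD over WT-HFD.

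The members that digest the cargo are *Ctsk*, *Ctss* and *Lipa*. Cathepsin K is a collagen-degrading protease, and cathepsin S trims the invariant chain for MHC class II and stays active at neutral pH. *Lipa* encodes lysosomal acid lipase, which splits cholesteryl esters and triglycerides. *Ctsk* had a log2 level of 7.44 on cKO-HFD, 7.39 on WT-HFD, 7.03 on cKO-CT and 6.47 on WT-CT. WT-CT was the lowest array by 0.56 log2 units, and the HFD arrays differed by 0.04. *Ctsk* rose 1.90-fold in WT-HFD (log2 ratio 0.93) and 1.96-fold in cKO-HFD (0.97) over WT-CT. In cKO-CT over WT-CT it reached 1.47-fold (log2 ratio 0.56, above 97.9% of genes), just under the size that counts, and it passed that size when the arrays were centred on the median gene but not after cyclic loess. Its diet ratio in the cKO mice was 0.41.

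*Ctss* followed another order, with a log2 level of 7.32 on cKO-HFD, 8.13 on WT-HFD, 7.32 on cKO-CT and 7.09 on WT-CT. The WT-HFD array stood apart and the other 3 lay within 0.22 log2 units (0.2245). It rose 2.06-fold in WT-HFD over WT-CT (log2 ratio 1.04, above 99.2% of genes). Its ratio in cKO-HFD over cKO-CT was 0.00 (-0.0034), and in cKO-HFD over WT-HFD it fell by 0.82 on the log2 scale (to 0.57-fold, above only 1.13% of genes). *Lipa* was nearly level, at 8.47 on cKO-HFD, 8.45 on WT-HFD, 8.50 on cKO-CT and 8.54 on WT-CT. Its ratios lay between -0.09 and 0.01 in all 5 comparisons, and WT-CT was its highest array.

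The promoters of *Gpnmb*, which rose most with HFD in WT mice among members above background there, and of *Ctss* and *Ctsk*, which lie side by side on chromosome 3 with 1 annotated gene between them and took different orders across the arrays, are shown from 250 bases before to 50 bases after the start of transcription (RefSeq, GRCm38.p6). They lie at chr6:49036268-49036567, chr3:95526536-95526835 and chr3:95498960-95499259, all on the plus strand, and hold 47.7%, 44.0% and 43.7% G and C. Capitals mark matches to 3 motifs searched on both strands, with no overlap between the matches found: TCACGTG, the core of the element bound by the lysosomal regulator TFEB and its relatives, TCATGTG, the core of the related M-box, and GAGGAAGT, a site of the type bound by the myeloid factor PU.1.
Gpnmb: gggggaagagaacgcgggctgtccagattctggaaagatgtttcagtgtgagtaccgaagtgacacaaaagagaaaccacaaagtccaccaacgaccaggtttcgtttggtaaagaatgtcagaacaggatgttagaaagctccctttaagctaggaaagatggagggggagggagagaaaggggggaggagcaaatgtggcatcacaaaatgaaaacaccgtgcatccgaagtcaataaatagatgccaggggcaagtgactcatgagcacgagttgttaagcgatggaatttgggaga
Ctss: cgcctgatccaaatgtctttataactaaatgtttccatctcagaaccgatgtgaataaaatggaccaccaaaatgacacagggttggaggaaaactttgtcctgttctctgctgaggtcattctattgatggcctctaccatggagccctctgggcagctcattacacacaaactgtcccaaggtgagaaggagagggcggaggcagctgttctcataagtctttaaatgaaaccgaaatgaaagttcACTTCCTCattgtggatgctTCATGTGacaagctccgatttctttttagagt
Ctsk: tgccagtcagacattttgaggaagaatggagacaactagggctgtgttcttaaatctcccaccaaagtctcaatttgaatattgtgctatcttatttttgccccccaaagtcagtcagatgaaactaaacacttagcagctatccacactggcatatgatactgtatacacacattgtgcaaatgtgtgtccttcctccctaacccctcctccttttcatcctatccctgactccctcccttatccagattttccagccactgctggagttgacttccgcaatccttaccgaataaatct
Of the 10 listed genes, 9 had a promoter in the table (all but *Atp6v0d2*). None of the 9 held TCACGTG, which 3.77% of all 32851 promoters held. *Ctss* alone held TCATGTG, at bases 269 to 275 as printed, as did 3.77% of all promoters. *Ctss* also held GAGGAAGT on the opposite strand, printed as ACTTCCTC at bases 249 to 256, and *Spp1* held it on the same strand, as did 3.20% of all promoters. A match is a run of letters and not a site.

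*Atp6v0d2* encodes the d2 subunit of the V-ATPase, an isoform known from osteoclasts and activated macrophages. Its log2 level was 5.39 on cKO-HFD, 5.56 on WT-HFD, 4.81 on cKO-CT and 4.37 on WT-CT. Only the WT-HFD value lay above the *Olfr* background, so the sizes of its ratios are not resolved. The measured ratio in WT-HFD over WT-CT was 1.20 (2.29-fold), and with WT-CT held at the background it was at least 1.13-fold. The ratio in cKO-HFD over cKO-CT was 0.57 (1.49-fold) between levels that both lay below background. Of genes of like level, 1.65% rose in WT-HFD over WT-CT and 2.74% in cKO-HFD over cKO-CT.

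The tetraspanins *Cd9* and *Cd63*, which organise the cell surface and the late endosome, moved least with HFD in WT mice apart from *Lipa*. *Cd9* had a log2 level of 7.03 on cKO-HFD, 7.16 on WT-HFD, 7.06 on cKO-CT and 7.01 on WT-CT, a range of 0.15. *Cd63* had 7.59 on cKO-HFD, 7.63 on WT-HFD, 7.91 on cKO-CT and 7.53 on WT-CT. *Cd63* was the only member whose highest array was cKO-CT, 1.30-fold above WT-CT (log2 ratio 0.38, above 93.4% of genes). Its ratio in cKO-HFD over cKO-CT was -0.32, above only 9.27% of genes.

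**Figure D2:**
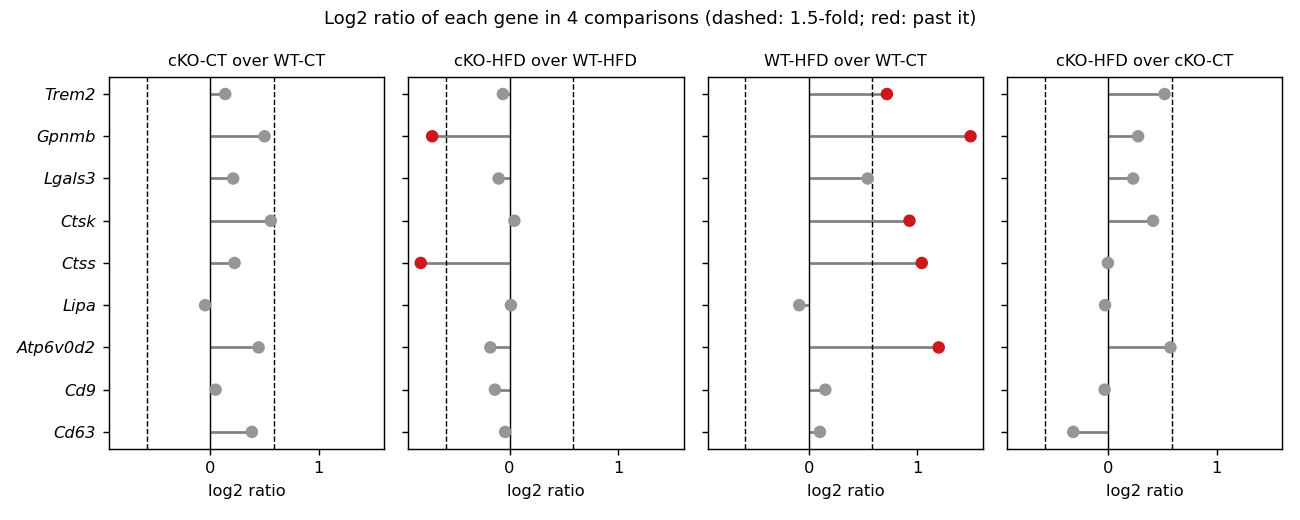
Log2 ratio (horizontal axis) of each of the 9 genes in 4 comparisons, 1 panel each, with dashed lines at 1.5-fold and red points past it. There are 5 red points in WT-HFD over WT-CT, 2 in cKO-HFD over WT-HFD (*Gpnmb* -0.71 and *Ctss* -0.82) and none in the other panels.

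The genotype ratio was lower on HFD than on CT for 8 of the 9 genes, with a median difference of -0.42 log2 units, against 0.02 over all 19938 genes, of which 9384 were below 0. The difference was -1.21 for *Gpnmb*, -1.04 for *Ctss*, -0.62 for *Atp6v0d2* and -0.51 for *Ctsk*. It was -0.20 for *Trem2* and 0.06 for *Lipa*. These are values from 4 arrays, and the difference was not tested.

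The pan-macrophage markers moved with the members in part. Their median log2 ratio was 0.68 in WT-HFD over WT-CT, 0.55 in cKO-CT over WT-CT, -0.33 in cKO-HFD over WT-HFD and -0.16 in cKO-HFD over cKO-CT. Of the 23 markers, 12 rose and 1 fell (*Timd4*, of resident macrophages, with a WT-HFD level below background) in WT-HFD over WT-CT, 9 rose in cKO-CT over WT-CT (2 after cyclic loess), and 4 fell in cKO-HFD over WT-HFD. In WT-HFD over WT-CT, 5 of the 9 members had a ratio above the marker median, and in cKO-CT over WT-CT 1 did (*Ctsk*, by 0.01). *Trem2* had a higher ratio than 4 of the 23 markers in cKO-CT over WT-CT and than 12 of them in WT-HFD over WT-CT. In cKO-HFD over WT-HFD, 7 members lay above the marker median, and *Gpnmb* and *Ctss* had lower ratios than all 23 markers, down to *Folr2* at -0.69.

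With diet in the cKO mice, the median log2 ratio was 0.23 for the members and -0.16 for the markers. The member median changed sign to -0.0034 over the 7 members whose log2 level averaged 7 or more, which leaves out *Trem2* and *Atp6v0d2*. In cKO-HFD over cKO-CT, 8 of the 9 members lay above the marker median, by 0.67 log2 units for *Trem2* and 0.57 for *Ctsk*, and *Cd63* lay 0.17 below it. *Trem2* and *Ctsk* had higher ratios than all 23 markers, among them *Cd68* at 0.29. *Atp6v0d2* is counted among the 8, but its place is not resolved, since it was below background on both cKO arrays. None of the members or markers passed 1.5-fold in that comparison.

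**Figure D3:**
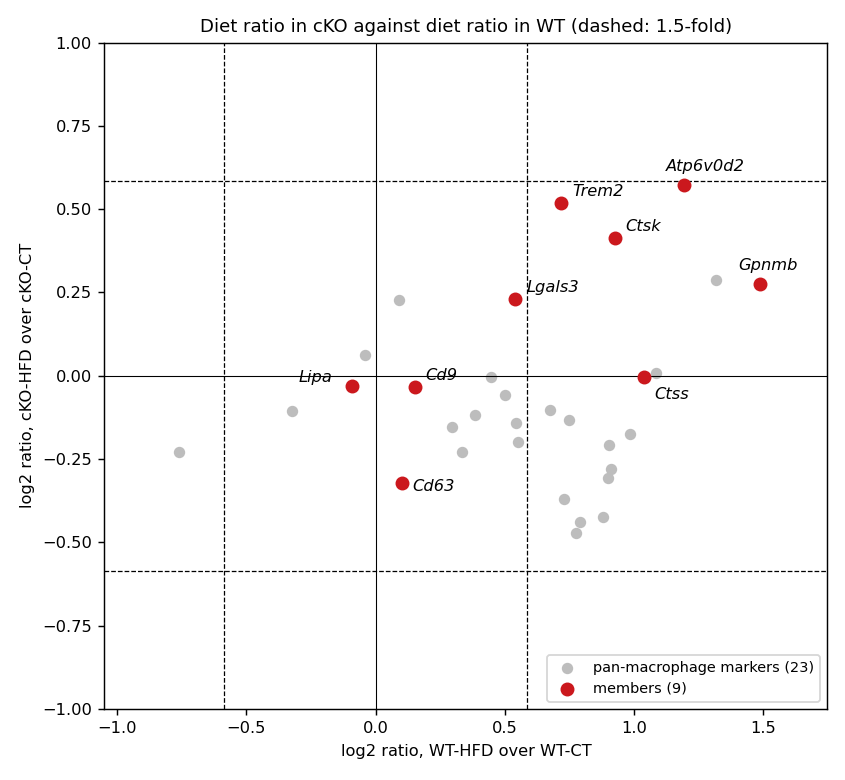
Log2 ratio of cKO-HFD over cKO-CT (vertical axis) against that of WT-HFD over WT-CT (horizontal axis) for the 9 members (red) and 23 pan-macrophage markers (grey), with dashed lines at 1.5-fold. Of the 23 grey points, 20 lie right of 0 and 4 above 0, while *Trem2* and *Ctsk* lie above every grey point, at 0.52 and 0.41 on the vertical axis. The place of *Atp6v0d2* on that axis is not resolved, since both its cKO levels were below background.

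Fibroblast and progenitor markers also moved. Of 11, 5 rose in WT-HFD over WT-CT (median log2 ratio 0.55) and 2 in cKO-CT over WT-CT (0.33, and none after cyclic loess), and 2 fell in cKO-HFD over WT-HFD (-0.18). All 11 lay above background on every array. Over all genes 3.16% rose in WT-HFD over WT-CT, 1.64% rose in cKO-CT over WT-CT and 2.11% fell in cKO-HFD over WT-HFD. Of 12 osteoclast genes other than *Ctsk* and *Atp6v0d2*, none rose in WT-HFD over WT-CT, and their median ratio was 0.06. Among the 12, *Calcr*, *Dcstamp*, *Oscar*, *Car2* and *Ocstamp* were below background on both of these arrays, so nothing is read from them. The melanocyte markers, which would mark another source of *Gpnmb*, had a mean log2 level of 4.83 on cKO-HFD, 4.75 on WT-HFD, 4.81 on cKO-CT and 4.90 on WT-CT, with 3, 2, 3 and 3 of 9 above background. *Mlana* and *Sox10* were above it on all arrays and *Pmel* on all but WT-HFD. The others, *Tyr*, *Tyrp1* and *Dct* among them, were below it on all arrays. The part of fibroblasts in the ratios of *Ctsk*, and of melanocytes in those of *Gpnmb*, was not tested.

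Of 18 genes that are relatives of *Trem2*, its ligands or signalling partners, or markers named with it, 3 rose in WT-HFD over WT-CT and none fell, with a median log2 ratio of 0.37 and 15 ratios above 0. Over all genes 3.16% rose there and 49.2% had a ratio above 0, and 1.64% rose in cKO-CT over WT-CT. *Tyrobp*, the signalling adaptor, rose by 1.09 on the log2 scale, *Itgax* by 1.16 with a WT-CT level below background, and the kinase gene *Syk* by 0.68. In cKO-CT over WT-CT 2 rose, *Tyrobp* (0.61) and *Itgax* (0.60), and the median was 0.34 (after cyclic loess only 1 passed). The size of that *Itgax* ratio is not resolved, since it rests on the same WT-CT level. In cKO-HFD over WT-HFD the median was -0.22 and 1 rose, *Treml2* (0.59, with a WT-HFD level below background), which did not pass after cyclic loess. In cKO-HFD over cKO-CT none passed 1.5-fold, and the median of 0.01 changed sign with the scaling.

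Of 30 other lipid-associated macrophage markers, 8 rose and 3 fell in WT-HFD over WT-CT, with a median log2 ratio of 0.20. Over all genes 3.16% rose and 2.67% fell there, and 1.64% rose in cKO-CT over WT-CT. *Cd68*, a lysosomal membrane glycoprotein of macrophages, rose by 1.32, and *Mmp12*, the macrophage elastase, by 1.07. The genes that fell were *Apoc1*, *Fabp5* (-0.81) and the lipid droplet coat gene *Plin2* (-0.84), the last 2 of which adipocytes also make. In cKO-CT over WT-CT 4 rose, among them the actin-capping gene *Capg* (0.74) and *Cd68* (0.67), and after cyclic loess 2 rose and 1 fell. *Itgax*, counted among the 4, had a WT-CT level below background, so the size of its ratio is not resolved. In cKO-HFD over cKO-CT 2 rose, *Mmp12* (0.73) and *Anxa2* (0.66), which encodes annexin A2. In cKO-HFD over WT-HFD 1 rose, *Fabp5* (0.75), and *Mmp12*, with a log2 level of 6.38 on cKO-HFD and 6.62 on WT-HFD, did not pass.

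Other lysosomal genes were read by class, beside the 3.16% of all genes that rose and 2.67% that fell in WT-HFD over WT-CT. Of 15 cathepsins, cystatins and legumain other than *Ctsk* and *Ctss*, 2 rose in WT-HFD over WT-CT, *Ctsh* (0.69) and the asparaginyl protease gene *Lgmn* (0.62), and none passed in cKO-CT over WT-CT, cKO-HFD over WT-HFD or cKO-HFD over cKO-CT. Of 31 lysosomal hydrolases other than *Lipa*, none rose or fell in any of the 5 comparisons, and their median log2 ratio was 0.08 in WT-HFD over WT-CT and 0.17 in cKO-CT over WT-CT. All 32 hydrolases, *Lipa* included, lay above background on the 4 arrays. Of 19 lysosomal membrane genes other than *Cd63*, 2 rose (*Cd68* and *Laptm5*, both myeloid) and 1 fell (*Abca2*, a lipid transporter, -0.59) in WT-HFD over WT-CT, and *Cd68* and *Laptm5* rose in cKO-CT over WT-CT too (1 of them after cyclic loess).

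The V-ATPase is built of many subunits. Of 23 subunit and accessory genes other than *Atp6v0d2*, none rose or fell in WT-HFD over WT-CT, with a median of -0.12. *Atp6v0a1*, of the membrane sector, had the ratio 0.48 and *Atp6v1h*, of the peripheral sector, -0.55. In cKO-HFD over WT-CT *Atp6v0a1* rose by 0.91. The bound on *Atp6v0d2* in WT-HFD over WT-CT (a log2 ratio of at least 0.17) lies below the ratio of *Atp6v0a1*, so it was not shown to differ from the other subunits. Of the 13 regulators of the lysosome measured, 2 rose in WT-HFD over WT-CT (3.16% of all genes did), *Fnip2* (0.93), a partner of folliculin, and *Rragd* (0.75), a Rag GTPase, whose WT-CT level lay below background. *Fnip2* also rose in cKO-CT over WT-CT (0.59), though not after cyclic loess. *Rragd* fell by 1.24 in cKO-HFD over WT-HFD, to a cKO-HFD level below background. All 12 muscle markers fell in that comparison (median log2 ratio -4.11), and their part in it was not tested.

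**Figure D4:**
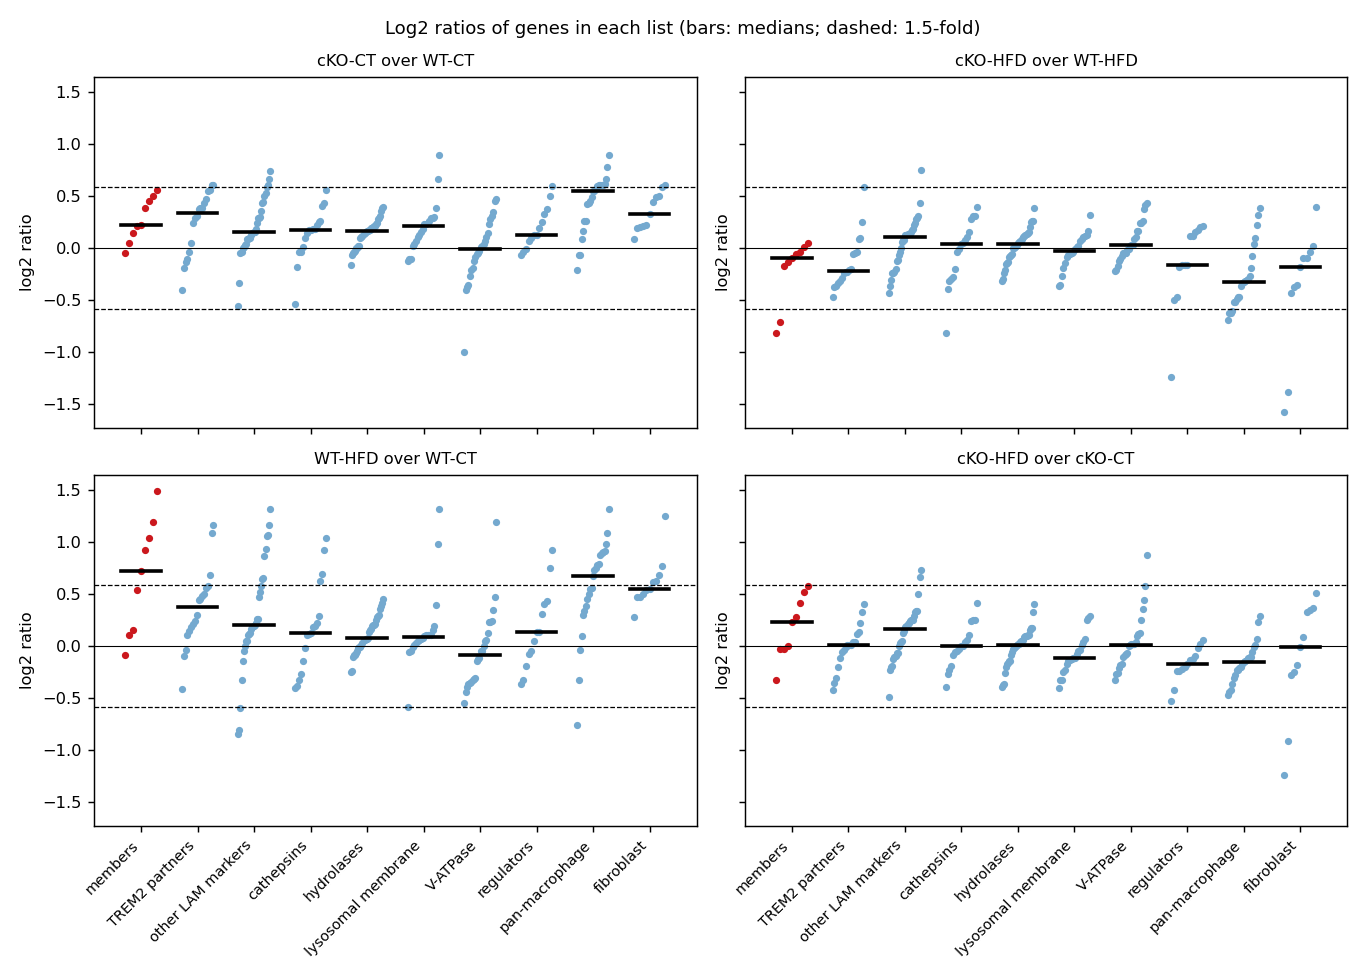
Log2 ratios (vertical axis) of the genes of 10 lists in 4 comparisons, 1 point per gene, with the 9 members in red, medians as black bars and 1.5-fold dashed. Members that belong to another list are drawn there too, and LAM stands for lipid-associated macrophage. In WT-HFD over WT-CT the medians were 0.72 for the members, 0.68 for pan-macrophage markers and 0.07 for lysosomal hydrolases (*Lipa* included).

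Families of single members were compared in the same way. Of 8 galectins other than *Lgals3*, none passed 1.5-fold in any of the 5 comparisons. Of 24 tetraspanins other than *Cd9* and *Cd63*, 1 rose (*Cd53*, of leukocytes, 0.73) and 1 fell (*Tspan18*, -1.08) in WT-HFD over WT-CT. In that comparison 3.16% of all genes rose and 2.67% fell. Of 11 receptors and ligand partners of osteopontin and galectin-3, 2 rose there, the hyaluronan and osteopontin receptor gene *Cd44* (0.70) and the integrin gene *Itga4* (0.75), and none fell.

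The 10 genes whose course over the 4 arrays was closest to the median course of the members were found by distance. Likeness was the Euclidean distance between log2 levels centred on each gene, over 4 arrays and the 5355 genes whose log2 level averaged 7 or more. *Sema3c*, a secreted semaphorin, was nearest (distance 0.048), followed by *Gamt* (0.061), which makes creatine. Next were *Col6a1* (0.096), *Tsc22d3* (0.096) and *Mustn1* (0.11), then the collagen gene *Col1a2* (0.12), *Sulf1* (0.12), *P2ry6* (0.14), a nucleotide receptor of macrophages, *Tead1* (0.14) and *Ceacam1* (0.14). *Sema3c* had a log2 level of 8.27 on cKO-HFD, 8.49 on WT-HFD, 8.09 on cKO-CT and 7.77 on WT-CT. With 4 arrays a like course can arise in many genes, and it says nothing of a shared function.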

How the data were processed

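Mice of 4 groups gave RNA from subcutaneous adipose tissue. The RNA was pooled within each group (from 4 to 5 mice per the labels) and hybridized to Affymetrix MoGene ST arrays, 1 per group. The authors deposited log2 values for each probe set, which they made with RMA (background correction, quantile normalization and summary of probes). RMA-Sketch of the APT suite is named in the methods, and Affymetrix Expression Console in the submitters' processing notes. Quantile normalization gives every array the same distribution, so a shift shared by most genes is not seen. The 95th percentile of *Olfr* genes on each array stood for background.

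Of 35556 probe sets, 21789 had 1 gene name in the platform annotation, 1621 several and 12146 none. Probe sets with 1 name were averaged per gene. Log2 ratios were differences between arrays, called at 1.5-fold, and the number of arrays limits the precision. Since groups had 1 array, no test, SD or P value was computed. Named genes were the listed members, *Napepld*, the 3 genes of each list with the largest ratio above background, the 10 nearest in course, cell type markers and genes needed to describe counts of 5 or fewer. The members and the 23 other gene lists (317 of the 339 symbols in all were measured) were chosen with earlier results of these data known. Promoters came from RefSeq tables. Alternatives were the highest probe set, median centring, cyclic loess (limma 3.58.1, span 0.7, 3 iterations), 2 filters on low levels and a 2-fold size. Calling was run on simulated data with planted changes larger than 1.5-fold, which checks the code only and not differences between single arrays. Python 3.11.15, numpy 2.4.6, pandas 2.3.3, matplotlib 3.10.9 and R 4.3.3 were used.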

Additional observations from a re-analysis of the deposited data

Results flagged for a closer look

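In the main values the genotype ratio had opposite signs on the 2 diets for 8 members, and none of these differences was tested. The difference, cKO-HFD over WT-HFD minus cKO-CT over WT-CT, was -1.21 log2 units for *Gpnmb*, -1.04 for *Ctss*, -0.62 for *Atp6v0d2*, -0.42 for *Cd63*, -0.31 for *Lgals3*, -0.20 for *Trem2*, -0.18 for *Cd9* and 0.059 for *Lipa*. Of these, *Gpnmb* (-0.71 on HFD and 0.50 on CT) and *Ctss* (-0.82 on HFD and 0.22 on CT) had a ratio past 1.5-fold on 1 of the diets. After cyclic loess, *Cd9* (-0.15 on HFD and -0.02 on CT) and *Lipa* (-0.0017 on HFD and -0.14 on CT) had the same sign on both diets. The diet ratio had opposite signs in the genotypes for *Ctss* (-0.0034 in cKO and 1.04 in WT, a difference of -1.04), *Cd63* (-0.32 in cKO and 0.10 in WT, -0.42) and *Cd9* (-0.034 in cKO and 0.15 in WT, -0.18), also untested. For each gene this difference is the same contrast of the arrays as that of the genotype ratios, and not a second observation. With 1 array per group a sign can turn on any ratio near 0. The share of all genes with opposite signs was not counted, so neither set of sign changes is read as particular to the members.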

How the results depend on the processing

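The limits are those of 4 arrays of pooled RNA, with the highest muscle marker levels on WT-HFD and the highest acinar marker levels on WT-CT. No paired analysis was possible because each group had 1 array, and no array could be left out of a comparison. The ratio of each member in each of the 5 comparisons was taken again under the highest probe set, median centring and cyclic loess, 135 values. Each differed from the main ratio by no more than the spread of ratios among genes of its level. For ratios under 1.5-fold, a change of sign within that spread was not counted. *Cd9* had such a change in cKO-CT over WT-CT (0.05, and -0.02 after cyclic loess), and *Lipa* in cKO-HFD over WT-HFD (0.01, and -0.0017 after cyclic loess). The 45 values under the highest probe set could not change, since each member had 1 probe set. Of the 88 counts, medians and differences over members, 79 held. Of these 79, 16 were under the highest probe set and 15 under the filter at the *Olfr* background. Those could not change, since each of the 9 members had 1 probe set and passed that filter. A count of 0 could not change at a 2-fold size or under the filter on mean level either, since neither can add a member. The 7 that held at a 2-fold size were all such counts. With median centring 1 member (*Ctsk*) rose in cKO-CT over WT-CT, against 0. At a 2-fold size 0 members fell in cKO-HFD over WT-HFD, 3 rose in WT-HFD over WT-CT and 1 in cKO-HFD over WT-CT. *Atp6v0d2*, whose ratio sizes are not resolved, is among these 3 and is that 1. The share of all genes was not counted at 2-fold, nor under the level filter that follows. These counts therefore show only how the member counts depend on the setting. Restricted to genes whose log2 level averaged 7 or more, which left 7 members without *Trem2* and *Atp6v0d2*, the number that rose was 3 with a median of 0.54 in WT-HFD over WT-CT and 2 with a median of 0.22 in cKO-HFD over WT-CT. Under that filter the median in cKO-HFD over cKO-CT changed sign to -0.0034, against 0.23 over 9 members.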

Other observations

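Markers of other cells that SAT can hold were read on the same scale. The 8 endothelial markers had a median log2 ratio of 0.57 in cKO-HFD over WT-CT, 0.36 in cKO-CT over WT-CT, 0.41 in cKO-HFD over WT-HFD, 0.25 in WT-HFD over WT-CT and 0.14 in cKO-HFD over cKO-CT, with 6 to 8 ratios above 0 in each. Of these, 4 rose in cKO-HFD over WT-CT (*Cdh5*, *Cldn5*, *Pecam1* and *Tie1*), and none passed 1.5-fold in the other 4 comparisons. Of 10 neutrophil and mast cell markers, *Ly6g*, *S100a8* and *S100a9* passed 1.5-fold in cKO-HFD over WT-HFD (1 of them after cyclic loess), but all 3 were below background on every array, so no change is read from them. The same holds for *Mpo*, which passed in cKO-CT over WT-CT and in cKO-HFD over cKO-CT. *Cpa3*, of mast cells, lay above background on every array. It fell by 0.70 in cKO-HFD over cKO-CT, with a log2 level of 6.41 on cKO-HFD and 7.11 on cKO-CT. Of 9 dendritic cell and monocyte markers, *Itgax* rose in WT-HFD over WT-CT and *Itgax* and *Cd209a* in cKO-CT over WT-CT. *Itgax* had a log2 level of 5.43 on cKO-CT and 4.82 on WT-CT, where the background was 5.39. The size of its ratio in cKO-CT over WT-CT is therefore not resolved. Of 9 lymphocyte markers, *Cd79a* alone passed 1.5-fold, and it was below background on every array. Of 9 adipocyte markers, *Lep*, the leptin gene, was the only one that passed, higher in every comparison but cKO-HFD over WT-HFD. None of 10 mammary epithelial markers passed in any of the 5 comparisons, and of 6 keratinocyte markers 3 passed 1.5-fold in cKO-HFD over cKO-CT, of which *Krt79* lay above background on both arrays, *Krt10* on cKO-HFD only and *Lor* on neither.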
